A study of Mus musculus with 8 samples.

Results

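The major histocompatibility complex (MHC) class II genes examined were Cd74, H2-Ab1, H2-Aa, H2-Eb1, H2-DMa and H2-DMb1, 6 rows of each deposited count table. One table held 17836 genes and the other 15769. They were chosen by name on their counts per cell type in these same libraries. Levels by cell type, by Gfap and by sort are therefore given as a description, with no test. The question put to them was how their counts divide between astrocytes with and without Gfap, microglia and other cell types, and how much microglial RNA lies beside them.

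The counts came from single-cell RNA sequencing of frontal isocortex from mice at postnatal day 7. Cells were taken in 2 flow cytometry sorts, and in each sort the study compared control with Foxp2 conditional knockout (cKO) animals in cell composition and expression, with 2 libraries per genotype. The D1Tom sort (11494 cells, 4 libraries) used a Drd1a-tdTomato reporter carried on a bacterial artificial chromosome, and the GTE sort (11382 cells) used a golli-τ-eGFP reporter. Controls were Foxp2 flox/flox with the reporter and no Cre, and cKO littermates carried Emx1-Cre in addition, on lines backcrossed to C57BL/6J, so Cre and the loss of Foxp2 cannot be told apart. Emx1-Cre acts in the dorsal forebrain lineage, which gives rise to cortical excitatory neurons and to cortical astrocytes, and not in microglia. In D1Tom the cKO 2 animal was male and the others female. In GTE the cKO 2 animal was female and the others male. The D1Tom libraries were prepared as batch 1 (control 1, cKO 1) and batch 2 (control 2, cKO 2). Where 4 values follow each other without names, they are in the library order control 1, control 2, cKO 1, cKO 2.

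MHC class II molecules are pairs of an α and a β chain that show peptides from the endosome to CD4+ T cells. Cd74, the invariant chain, guides the new pair to the endosome and blocks its groove, and the H2-DM pair exchanges the remnant of Cd74 for peptide. Dendritic cells, B cells and macrophages make them constitutively. In the brain, microglia and border macrophages are the usual source, and cultured astrocytes make them after interferon gamma. The coactivator Ciita switches the genes on together at a shared promoter module, in which an X box and a Y box (an inverted CCAAT sequence) lie a fixed distance apart.

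Because class II promoters are known for this module, promoter windows are shown for the α chain H2-Aa and the β chain H2-Eb1. H2-Ab1, H2-Aa, H2-Eb1, H2-DMa and H2-DMb1 lie close together on mouse chromosome 17, and Cd74 lies on another chromosome (GENCODE M21, GRCm38). Each sequence is the 250 bases before the RefSeq gene start (GRCm38.p6), 5′ to 3′ on the strand of the gene. The H2-Aa window is chr17:34287824-34288073 on the minus strand and the H2-Eb1 window chr17:34305617-34305866 on the plus strand. Capitals mark GNAACT, letters found in the X box, and GATTGG, letters found in the Y box.
H2-Aa: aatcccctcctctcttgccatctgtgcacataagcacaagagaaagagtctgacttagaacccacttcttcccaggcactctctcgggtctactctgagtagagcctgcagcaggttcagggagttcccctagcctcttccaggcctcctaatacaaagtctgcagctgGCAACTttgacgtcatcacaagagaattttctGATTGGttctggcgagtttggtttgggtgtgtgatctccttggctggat
H2-Eb1: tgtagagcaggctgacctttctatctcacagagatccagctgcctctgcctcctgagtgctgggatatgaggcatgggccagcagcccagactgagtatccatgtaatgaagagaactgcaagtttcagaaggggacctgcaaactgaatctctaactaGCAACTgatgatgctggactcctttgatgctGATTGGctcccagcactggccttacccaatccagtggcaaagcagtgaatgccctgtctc
The distance between the motifs was much the same in both. In H2-Aa the first motif began 81 bases and the second 49 bases before the gene start, with 26 bases between them. In H2-Eb1 they began 91 and 60 bases before it, with 25 between them. The H2-DMb1 window is not printed, because its last 119 bases lie inside the GENCODE gene model of H2-DMb1. It had the same pair at 94 and 62 bases, again 26 apart, and thus within that model. Neither window of H2-DMa held the pair, but all 250 bases of each lie inside its GENCODE gene model. They therefore do not show what lies before the GENCODE start of H2-DMa. Windows of Cd74 and H2-Ab1 were not used here. Both strands were searched, and the letters were chosen after the sequences had been seen. GNAACT followed on the same strand by GATTGG within 30 bases was present in 152 of 32851 windows of this length (0.463%), against 14.6% for GATTGG and 37.3% for GNAACT alone. A match of letters is a description and not evidence of binding.

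Cells were classed by 15 astrocyte, 15 microglia and other marker genes, none of them a member. A cell joined the list with the largest share detected, with at least 3 markers required. D1Tom held 4430 astrocytes, of which 1383 had at least 1 Gfap count (Gfap-positive) and 3047 had none (Gfap-negative), beside 50 microglia and 15 border macrophages. Gfap-positive cells made up 25.9%, 40.2%, 26.4% and 34.0% of the astrocytes in library order. Of these 291, 294, 267 and 531 cells, only 169, 94, 122 and 172 had fewer than 3 markers of each other class. Levels are in CPM, the counts of a gene or list per 1000000 counts. The summed astrocyte list was at 10731 CPM in Gfap-positive cells, 9155 in Gfap-negative cells and 1699 in microglia. The same markers set the classes, so these levels are no separate check of the label. GTE held 127 Gfap-positive and 3009 Gfap-negative astrocytes and 104 microglia. Total counts ran from 27323298 to 36379194 per D1Tom library and from 4878370 to 6092396 per GTE library. Median counts per cell were 7198 to 12815 in D1Tom and 1085.5 to 2982 in GTE. Foxp2 over all D1Tom cells was at 36.3, 39.1, 26.5 and 19.4 CPM, with both controls above both cKO libraries, although 3′ tags need not lie in the deleted part. In D1Tom Gfap-positive astrocytes Foxp2 was at 14.0, 34.1, 27.2 and 16.5 CPM, and in all GTE cells at 9.52, 46.9, 25.4 and 7.43 CPM. The genotypes overlapped in both. Libraries differed in how often a count of 2 was met relative to a count of 1, from 0.307 to 1.69 times in D1Tom, and whether a count is a single molecule was not tested.

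In the D1Tom sort, counts of the 6 genes were concentrated in Gfap-positive astrocytes. The members had 8279 counts in all D1Tom cells, and 5778 of them (69.8%) lay in Gfap-positive astrocytes, which were 12.0% of the cells. Gfap-negative astrocytes, 26.5% of the cells, held 334 counts (4.03%). Microglia, 0.435% of the cells, held 53 counts (0.640%). Excitatory neurons, 21.3% of the cells, held 915 (11.1%), and oligodendrocyte precursors, 17.5% of the cells, held 496 (5.99%). Summed over the 6 genes, Gfap-positive astrocytes were at 781, 434, 150 and 230 CPM. Gfap-negative astrocytes were at 20.8, 11.8, 9.52 and 11.0 CPM. All Gfap-positive values were above all Gfap-negative values.

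Cd74, the invariant chain, reached 283, 168, 46.0 and 92.9 CPM in Gfap-positive astrocytes, a mean of 147 ± 103 (SD, n = 4). In Gfap-negative astrocytes of the same libraries it was at 0.743, 0.633, 0.492 and 0.549 CPM, a mean of 0.604 ± 0.109. The 2 kinds of astrocyte did not overlap. Microglia had 15.7, 0, 53.8 and 32.9 CPM from only 14 counts, and 7 of 50 microglia had a count. The microglial range overlapped that of Gfap-positive astrocytes through the cKO 1 library, whose microglia numbered 4. Of the 15 border macrophages, 9 had a Cd74 count. The 7 of control 1 were at 132 CPM and the 7 of cKO 2 at 113 CPM, the latter above the Gfap-positive astrocytes of that library, while the 1 of control 2 had no Cd74 count and cKO 1 had no such cell. Oligodendrocyte precursors were at 3.04 ± 2.09 CPM, interneurons at 1.96 ± 1.69 and excitatory neurons at 0.957 ± 0.319. These 3 classes overlapped their neighbours in the order of levels.

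Endothelial cells were at 0, 45.6, 0 and 7.49 CPM of Cd74. The control 2 value came mostly from a single cell with 143 of its 146 endothelial Cd74 counts. That cell had 33901 counts in all, 243 of them from the 6 genes. It had 7 of the 15 astrocyte markers, with 59 counts of that list, and 1 Gfap count. The endothelial cells of control 2 together had 35 counts of B cell marker genes. They also held 5 of the 7 D1Tom counts of the class II gene H2-Oa and all 5 of H2-Ob. Which of these cells held them was not examined. Outside the astrocytes, 4 D1Tom cells had 15 or more member counts. They were the endothelial cell above, an oligodendrocyte precursor of control 1, a mural cell of control 2 and an endothelial cell of cKO 2. The other 3 had 12 or 13 astrocyte markers and 8, 20 and 63 Gfap counts. The 7 mural cells of control 2 were at 81.6 CPM of Cd74 and 317 CPM of the summed members. The mural cell named above held 6 of their 9 Cd74 counts and 23 of their 35 member counts. Mural cells of the other libraries had 0 counts of Cd74.

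**Figure D1:**
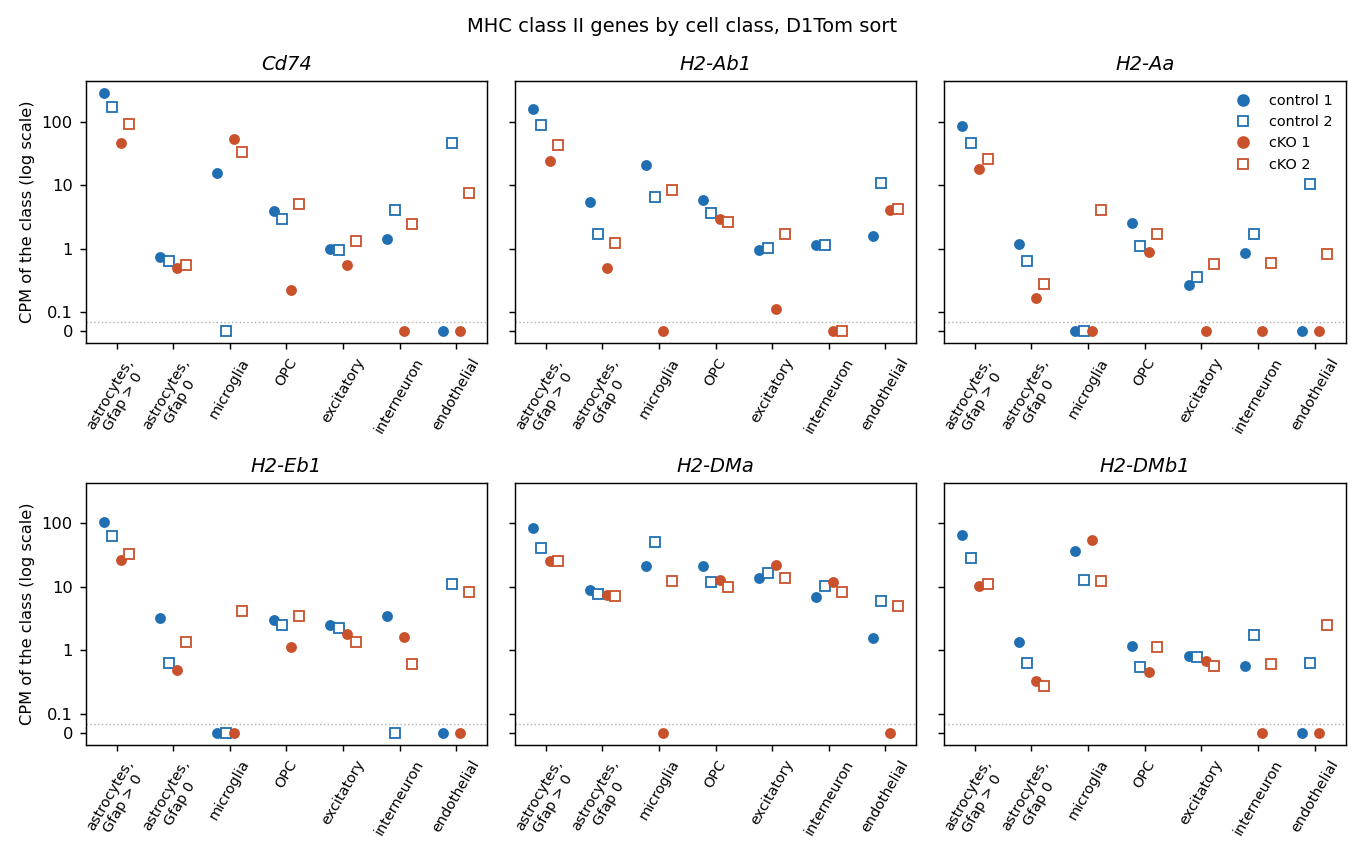
Level of each of the 6 genes in 7 D1Tom cell classes, in CPM of the class on a log axis (a level of 0 is drawn under the dotted line), with 1 point per library. Cd74 runs from 46.0 to 283 CPM in Gfap-positive astrocytes and from 0.492 to 0.743 in Gfap-negative astrocytes, while H2-DMa is spread over more classes.

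H2-Ab1, the β chain of the A molecule, was at 158, 89.1, 24.0 and 42.9 CPM in Gfap-positive astrocytes, and at 5.50, 1.69, 0.492 and 1.23 CPM in Gfap-negative astrocytes. H2-Aa, its α chain partner, was at 85.2, 46.7, 18.1 and 25.7 CPM in Gfap-positive astrocytes and at 1.19, 0.633, 0.164 and 0.274 CPM in Gfap-negative astrocytes. H2-Eb1, the β chain of the E molecule, was at 103, 62.0, 26.2 and 32.4 CPM against 3.27, 0.633, 0.492 and 1.37 CPM. For each of the 3 chains the lowest Gfap-positive library lay above the highest Gfap-negative one. Microglia of the 4 libraries together held 7 counts of H2-Ab1, 1 of H2-Aa and 1 of H2-Eb1. H2-Aa and H2-Eb1 were therefore at 0 in the microglia of control 1, control 2 and cKO 1, while cKO 2 had 4.12 CPM of each. A limit of 3 counts for a library at 0 allows up to 15.7, 19.4 and 53.8 CPM in the microglia of control 1, control 2 and cKO 1. In excitatory neurons the means were 0.942 ± 0.657 CPM for H2-Ab1, 0.300 ± 0.237 for H2-Aa and 1.97 ± 0.523 for H2-Eb1.

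The H2-DM pair showed 2 patterns. H2-DMb1, the β subunit, was at 66.1, 28.1, 10.4 and 10.9 CPM in Gfap-positive astrocytes against 1.34, 0.633, 0.328 and 0.274 CPM in Gfap-negative astrocytes. Microglia had 36.6, 12.9, 53.8 and 12.4 CPM, from 15 counts in 8 of 50 cells. H2-DMb1 was thus the member whose microglial mean (28.9 ± 20.1 CPM) was closest to that of Gfap-positive astrocytes (28.9 ± 26.2). H2-DMb2, its near copy, had only 41 counts in D1Tom, and counts that the authors' counting may have split between the copies cannot be told apart.

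H2-DMa, the α subunit, was spread over most classes. It was at 85.5, 40.8, 25.3 and 25.7 CPM in Gfap-positive astrocytes, at 8.77, 7.59, 7.55 and 7.27 in Gfap-negative astrocytes, and at 13.9, 16.2, 21.8 and 13.6 in excitatory neurons. Oligodendrocyte precursors had 21.1, 11.9, 12.99 and 9.85 CPM and interneurons 6.84, 10.3, 12.1 and 8.43. Gfap-positive astrocytes were above these neural classes in the range of the libraries, while Gfap-negative astrocytes were below excitatory neurons and precursors, and interneurons below excitatory neurons. The other neighbours in the order overlapped. Microglia had 20.9, 51.7, 0 and 12.4 CPM and overlapped nearly all. Only 31.0% of the H2-DMa counts lay in Gfap-positive astrocytes, against 74.6% to 85.6% for the other 5 members. H2-DMa overlaps Brd2 on the opposite strand, and whether counting used strand is not given in the sources used here, so reads of the pair cannot be told apart. Brd2, a broadly expressed chromatin reader, was at 174, 216, 240 and 219 CPM in Gfap-positive astrocytes and at 192, 228, 195 and 207 in Gfap-negative astrocytes, which overlapped.

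Within Gfap-positive astrocytes the members were detected together in some cells and not at all in most. None of the 6 genes was detected in 879 of 1383 cells, exactly 1 in 174 cells, and at least 2 in 330 cells (23.9%), called class II-positive below. All 6 were detected in 61 cells. The threshold of 2 genes was chosen after the data had been seen. In the controls, class II-positive cells numbered 99 of 291 (34.0%, exact Clopper-Pearson 95% interval 28.6 to 39.8) and 97 of 294 (33.0%, 27.6 to 38.7). In the cKO libraries they numbered 42 of 267 (15.7%, 11.6 to 20.7) and 92 of 531 (17.3%, 14.2 to 20.8). Both controls were above both cKO libraries. Intervals cover counting error only. Among Gfap-negative astrocytes 10 of 834, 1 of 438, 2 of 746 and 3 of 1029 cells were class II-positive, and none of them had 5 or 6 members. The share was 1.80% of 2443 excitatory neurons, at a median of 14457 counts in those with no member, and 1.34% of 2017 oligodendrocyte precursors. Of the microglia, 6 of 50 were class II-positive.

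The other members were detected more often in cells with Cd74 than in cells without it. Of the 295 Gfap-positive astrocytes with a Cd74 count, 70.5% had an H2-Ab1 count, against 6.89% of those without Cd74. H2-Aa was present in 56.6% against 2.85%, H2-Eb1 in 64.4% against 5.61%, H2-DMa in 57.3% against 10.0% and H2-DMb1 in 42.7% against 2.39%. These are cells of 4 libraries and not replicates. Depth moved with the pattern: class II-positive cells had median totals of 14187, 13351, 13528 and 9176.5 counts, against 8731, 11101, 9255 and 7106.5 in cells with no member. With each cell thinned to 1000 counts, at least 1 member was still found in 27.1%, 24.5%, 7.49% and 11.1% of Gfap-positive astrocytes (46.7%, 48.0%, 27.0% and 29.2% before thinning). In thinned Gfap-negative astrocytes the shares were 2.16%, 0.913%, 0.402% and 0.486%, with no D1Tom cell left out.

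**Figure D2:**
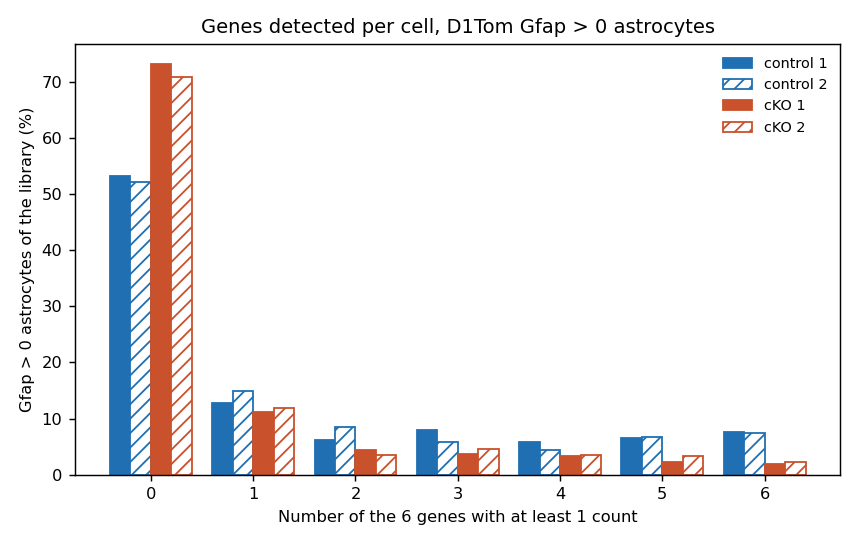
Share of Gfap-positive astrocytes of each D1Tom library (y axis, %) by the number of the 6 genes with at least 1 count in the cell (x axis). Cells with none are the largest class in each library, and cells with 2 to 6 genes make up 34.0% and 33.0% of the 2 control libraries but 15.7% and 17.3% of the 2 cKO libraries.

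No single cell held most of the counts of a member. For Cd74 the richest Gfap-positive astrocyte held 7.19%, 6.47%, 12.7% and 8.67% of the Gfap-positive counts of its library. The 10 richest cells together held 40.7%, 37.1%, 60.6% and 42.6%. Of the members, H2-Aa in cKO 1 was the most concentrated, with 19.6% of its counts in 1 cell. D1Tom libraries shared 14 to 26 cell barcodes per pair, and no class II-positive cell shared its barcode with a class II-positive cell of another D1Tom library.

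Class II-positive cells were more frequent at higher Gfap, the intermediate filament of mature and reactive astrocytes. Below 300 CPM of Gfap (but above 0), 5.83%, 2.42%, 0% and 0.980% of astrocytes were class II-positive. From 300 to 1000 CPM the shares were 30.2%, 22.5%, 6.94% and 9.38%. At 1000 CPM or more they were 74.4% (61 of 82 cells), 65.4% (85 of 130), 43.0% (37 of 86) and 62.0% (80 of 129). Within each library the share was higher in each higher Gfap range, and both controls were above both cKO libraries in each range. The summed level at 1000 CPM or more was 1726, 875, 347 and 745 CPM. Median totals in that range were 13140, 11738, 12800 and 8789 counts, and the part of depth in these shares was not tested. Over all astrocytes Gfap was at 349, 591, 430 and 373 CPM, and the genotypes overlapped.

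**Figure D3:**
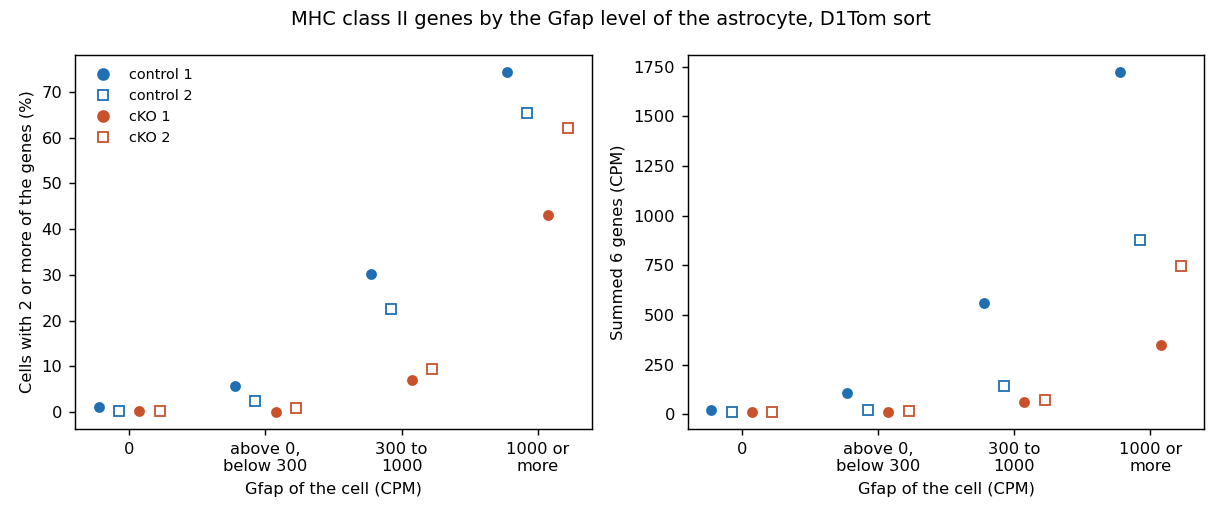
Share of class II-positive astrocytes (left, %) and summed level of the 6 genes (right, CPM) by the Gfap level of the cell in CPM, with 1 point per D1Tom library. Both measures are highest at 1000 CPM of Gfap or more, where the shares run from 43.0% to 74.4%.

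When D1Tom cells were clustered without the members and without Gfap, a single cluster stood out. It held 570 cells, 96.7% of them of the astrocyte class, with 769 CPM of the 6 genes, 2032 CPM of Gfap and 62.8% of all member counts in the sort. Class II-positive cells were 290 of its 570 cells. Its member level was 1167, 786, 282 and 686 CPM, with cKO 2 near control 2. Another cluster of 354 cells, 96.0% of them of the astrocyte class and led by genes of dividing cells such as Hmmr, Prc1 and Cdc20, had 108 CPM, and the largest astrocyte cluster (1573 cells) had 19.4 CPM. The microglia cluster had 76.5 CPM of the members beside 12502 CPM of the microglia list, against 21.0 CPM of that list in the first cluster. Of the 111 cells in the microglia cluster, 35 (31.5%) were in the astrocyte class by markers.

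Microglial RNA was measured by the summed counts of 15 microglia markers, among them Cx3cr1, Csf1r, P2ry12 and the C1q subunits. In microglia the list was at 23103, 17604, 19699 and 14591 CPM, beside 94.2, 71.0, 108 and 74.1 CPM of the 6 members. In Gfap-positive astrocytes it was at 33.1, 49.1, 15.2 and 34.2 CPM beside 781, 434, 150 and 230 CPM of the members. The members exceeded the microglia list in the Gfap-positive astrocytes of each library, and the list exceeded the members in the microglia of each library. The microglia list also helped to set the classes, so its low level in astrocytes and high level in microglia follow in part from that. The same limit holds for the ratios of members to this list. Per 1000 counts of the microglia list there were 4.50 member counts in microglia, 5.91 in border macrophages, 583 in Gfap-negative astrocytes and 11487 in Gfap-positive astrocytes. The Gfap-positive value by library was 23615, 8853, 9851 and 6745.

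Gfap-positive astrocytes had 503 counts of the microglia list. At the ratio measured in microglia, these would come with 2.26 member counts, and at the ratio of border macrophages with 2.97, where 5778 were measured. The ratios rest on only 53 member counts in 50 microglia and 17 in 15 border macrophages, and are averages over those cells. The part of microglial RNA in the astrocyte counts was not tested. For Cd74 alone the microglial ratio gave 0.598 counts where 2150 were measured. Gfap-negative astrocytes carried more microglia-list counts (573) with 334 member counts, of which 194 were H2-DMa. Gfap-positive astrocytes without any microglia-list count numbered 253, 272, 251 and 481 in library order. Their members summed to 662, 451, 158 and 211 CPM, against 781, 434, 150 and 230 CPM in all Gfap-positive astrocytes. This choice cannot remove RNA of other cells that brought no listed marker, and the source of the counts was not tested.

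Class II-positive cells did carry microglia-list counts more often than other cells in some libraries. The share with at least 1 such count was 26.3%, 7.22%, 7.14% and 14.1%, against 6.45%, 7.84%, 6.15% and 8.24% in Gfap-positive astrocytes with no member. The share was higher in control 1 and cKO 2, and near that of the other cells in control 2 and cKO 1. The list was at 67.5, 55.9, 35.7 and 34.1 CPM in class II-positive cells and at 6.87, 56.5, 10.8 and 19.5 CPM in cells with no member. In control 2 the 79 counts of class II-positive cells lay in 7 of 97 cells. Class II-positive cells were also deeper, and the part of depth in these shares was not tested.

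**Figure D4:**
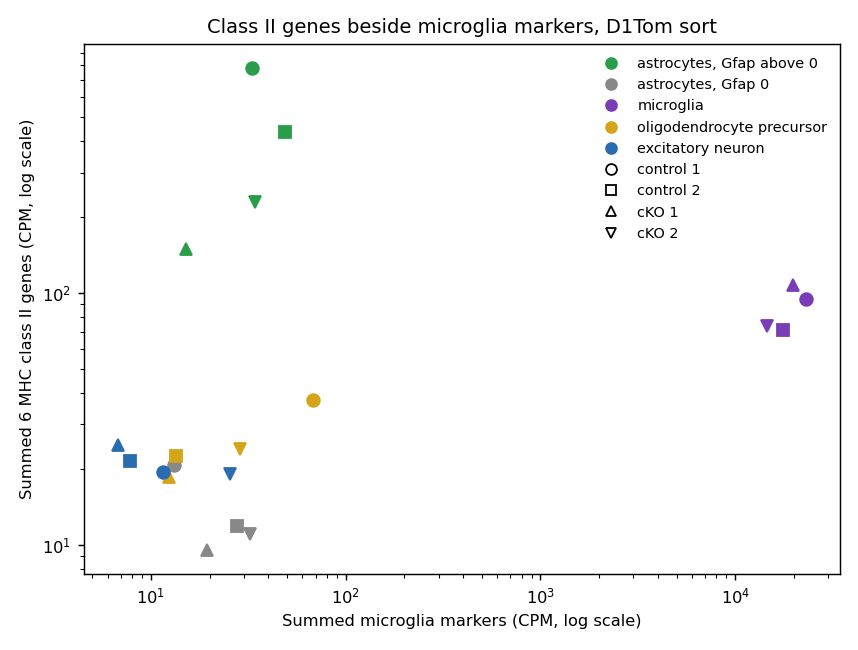
Summed level of the 6 members (y axis, CPM) against the summed level of 15 microglia markers (x axis, CPM), both on log axes. There is 1 point per D1Tom library and class, and the microglia markers also helped to set the classes. Microglia lie at 71.0 to 108 CPM of the members and 14591 to 23103 CPM of microglia markers, and Gfap-positive astrocytes at 150 to 781 CPM of the members and 15.2 to 49.1 CPM of microglia markers.

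Other antigen-presenting cells were looked for by their markers in the 330 class II-positive cells. The 15 microglia genes had 232 counts there (11783 in the 50 microglia), and only Selplg was at 0. The 8 border macrophage genes had 9 counts, with Ms4a7 and Cbr2 at 0. Of 7 dendritic cell genes, 6 were at 0, among them Flt3, Itgax and Xcr1, and the 13 counts were all from Zbtb46, which was higher in cells with no member (11.1 against 2.91 CPM). Of 4 B cell genes, 3 were at 0, with Ms4a1 among them, and Cd79b had 1 count. Ctss encodes cathepsin S, the protease that trims Cd74 in professional antigen-presenting cells. In class II-positive cells it was at 6.26, 0, 0 and 1.07 CPM, while microglia had 1402, 1001, 646 and 663 CPM. The 50 microglia had 0 counts of Ciita, which with 3 counts as the limit allows up to 15.7, 19.4, 53.8 and 12.4 CPM. Class II-positive cells had 10.4, 13.4, 5.95 and 14.9 CPM, against 3.43, 2.61, 0.982 and 0.330 in Gfap-positive astrocytes with no member. Only in cKO 2 was the level in class II-positive cells above the microglial limit.

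Other genes were then set side by side in class II-positive cells and in Gfap-positive astrocytes with no member of the same library, for 10725 genes with a mean of at least 5 CPM. The cells were split by the members, so no test was made. Of all genes, 13.2% were higher in 4 of 4 libraries, 21.0% lower in 4 of 4, and 0.503% at least 2-fold higher in 4 of 4 on the log2(CPM + 5) scale. Gfap was at 2551 ± 572 CPM in class II-positive cells and at 529 ± 145 in the others (SD, n = 4 libraries). Aqp4, the water channel of astrocyte endfeet, was at 3191 ± 803 against 982 ± 198. Myoc, which is known from glia limitans astrocytes, was at 34.1 ± 13.1 against 4.33 ± 1.99, and Rspo1, a secreted enhancer of Wnt signalling, at 183 ± 39.2 against 24.2 ± 11.9. Fgd2, an exchange factor for Cdc42, was at 63.1 ± 10.2 against 8.95 ± 3.66, and the phospholipase Pla2g3 at 890 ± 184 against 195 ± 80.6. These 6 genes were chosen after their values had been seen, except Gfap.

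Other genes of the class II pathway differed in both directions. Of 11 compared regulators and processing genes, Ciita, Ctsb and Lgmn were higher in 4 of 4 libraries and Rfx5 and Nfyb lower in 4 of 4, with a median log2 difference of 0.10 against -0.06 over all genes. Ciita was at 11.2 ± 3.96 against 1.84 ± 1.43 CPM. Lgmn, a lysosomal protease, was at 66.8 ± 12.4 against 41.9 ± 10.1 CPM. Rfx5, a subunit of the X box factor, was at 13.9 ± 3.23 against 19.1 ± 2.90 CPM. Of 9 MHC class I and peptide loading genes, 5 were higher in 4 of 4 libraries and 1 lower, with a median of 0.50. B2m, the class I light chain, was at 157 ± 41.8 against 92.3 ± 16.5 CPM, and H2-D1, a class I heavy chain, at 31.4 ± 14.7 against 12.3 ± 2.74.

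Interferon genes were divided. Of 15 compared, 4 were higher in 4 of 4 libraries and 2 lower, with a median of 0.24. Ifitm3, an interferon-induced membrane protein, was at 195 ± 77.9 against 69.1 ± 25.8 CPM. Ifngr2, a chain of the interferon gamma receptor, was lower in 4 of 4, at 52.3 ± 9.48 against 84.0 ± 9.33 CPM. None of 6 T cell costimulation genes reached the 5 CPM limit. Of 9 reactive astrocyte genes 6 were higher and 2 lower in 4 of 4 libraries, with a median of 0.75, and Gfap is one of the list. Astrocyte markers were higher in 8 of 15 genes and lower in 2. All 7 compared excitatory neuron markers were lower in 4 of 4 libraries, with a median of -1.15, and 3 of 5 dividing-cell markers were lower and none higher.

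**Figure D5:**
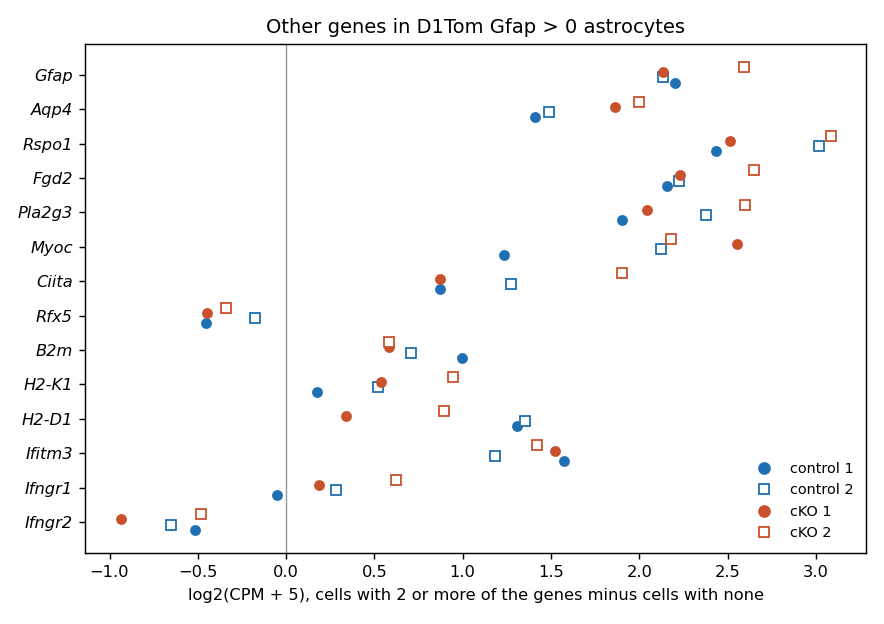
Difference in log2(CPM + 5) between class II-positive cells and cells with none of the 6 genes, for 14 genes in D1Tom Gfap-positive astrocytes, with 1 point per library. Gfap, Aqp4 and Ciita lie above 0 in all 4 libraries, and Rfx5 and Ifngr2 below 0 in all 4.

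The genes most like the summed members over 27 library-by-class sums of D1Tom were named by their Pearson correlation of log2(CPM + 1), as a description. They were Glycam1 (0.86), Nrp2 (0.86), Aspg (0.84), Pla2g16 (0.82), Fgd2 (0.82), Serpinf2 (0.81), Smad6 (0.81) and Myoc (0.81). The sums share libraries and depth. Glycam1 averaged 7.58 CPM in Gfap-positive and 0.245 CPM in Gfap-negative astrocytes. Nrp2, a semaphorin receptor, averaged 100.2 and 7.87 CPM, and Smad6, an inhibitor of BMP signalling, 42.2 and 4.50 CPM.

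The genotypes were compared over summed counts of each library, 2 against 2, for all genes. The level of the members in D1Tom cKO astrocytes was below that of controls for each of the 6 genes, and no gene of any kind passed the planned test. In Gfap-positive astrocytes the summed members were at 608 ± 245 CPM in controls and 190 ± 56.9 in cKO (SD, n = 2 each), and the groups did not overlap. The edgeR log2 difference, cKO minus control, was -1.65 (SE 0.41) for Cd74, -1.84 (0.40) for H2-Ab1, -1.55 (0.37) for H2-Aa, -1.47 (0.32) for H2-Eb1, -1.29 (0.37) for H2-DMa and -2.13 (0.44) for H2-DMb1. Of 11752 genes 0 (0.0%) had an adjusted p under 0.05 by edgeR's quasi-likelihood test, and the adjusted p was 0.945 for each member. Before adjustment 487 genes had a p under 0.05 in edgeR, 2.84% of all genes being also lower in cKO. The members' unadjusted edgeR p-values ran from 0.00118 to 0.00795. P-values measure only the spread between these libraries. Both cKO libraries were below both controls in 6 of 6 members and in 17.6% of all genes. Some results on the members in cKO astrocytes were known when the list was made, so the count of 6 supports nothing further. The Gfap-positive class also differed between libraries in its Gfap levels. Of its 291, 294, 267 and 531 cells, 103, 124, 109 and 306 were below 300 CPM of Gfap. At 1000 CPM of Gfap or more, the summed members were at 1726, 875, 347 and 745 CPM. The part of the Gfap mix in the genotype difference was not tested.

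The D1Tom libraries were prepared as pairs, and a fit with the batch as a block gave another call. With that block, edgeR called 243 of 11752 genes (2.07%), and the 6 members were lower in cKO with adjusted p-values of 0.00188 for Cd74, 0.00071 for H2-Ab1, 0.00389 for H2-Aa, 0.00246 for H2-Eb1, 0.013 for H2-DMa and 0.000519 for H2-DMb1. Within batch 1, Cd74 was at 283 CPM in the control and 46.0 in the cKO, and within batch 2 at 168 and 92.9. The difference had the same sign in both batches for each member and was larger in batch 1. This fit has 1 residual degree of freedom and leans on the spread estimated over all genes. DESeq2 called 17 genes (0.139%), among them Cd74 (adjusted p = 0.0292), H2-Ab1 (0.00822) and H2-DMb1 (0.0155). Without control 2 edgeR called 601 genes and all 6 members, and without control 1 it called 40 genes with Cd74 (log2 difference -1.20) and H2-Ab1 (-1.34) among them. Without cKO 1 it called 6 genes and without cKO 2 it called 0 (142 at an unadjusted p under 0.05), with no member in either. Without the filter on low counts 112 genes and all 6 members passed. Without astrocytes that carried 3 or more markers of another class, an alternative added after the data had been seen, 58 genes passed and of the members only H2-Ab1 (-1.44, edgeR adjusted p = 0.0303). That choice kept 169, 94, 122 and 172 of the 291, 294, 267 and 531 Gfap-positive astrocytes.

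Over all D1Tom astrocytes the picture was similar. Cd74 had 93.4, 75.7, 15.8 and 36.3 CPM, and H2-DMb1 22.6, 13.001, 3.70 and 4.37 CPM. The edgeR log2 differences were -1.59 (SE 0.44) for Cd74, -1.80 (0.41) for H2-Ab1, -1.52 (0.36) for H2-Aa, -1.42 (0.31) for H2-Eb1, -0.94 (0.28) for H2-DMa and -2.05 (0.38) for H2-DMb1, none past the threshold (edgeR adjusted p = 0.9996). Of 12815 genes 0 (0.0%) passed, and 213 had a p under 0.05 in edgeR before adjustment (1.05% of all genes with the cKO lower). Both cKO libraries were below both controls in 6 of 6 members and 14.3% of all genes. With the batch as a block 278 genes (2.17%) passed, and so did all 6 members. Their edgeR adjusted p-values ran from 4.95e-14 (H2-Ab1) to 0.00528 (H2-DMa). This fit too has 1 residual degree of freedom and leans on the spread estimated over all genes. DESeq2 called 12 genes (0.0739%), H2-Ab1 (adjusted p = 0.0333) and H2-DMb1 (0.0211) among them. Without control 2, 932 genes and all 6 members passed in edgeR, and without control 1, 39 genes and 5 members, H2-DMa not among them.

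In Gfap-negative astrocytes only H2-Ab1 and H2-DMa had enough counts to be tested. H2-Ab1 was at -1.90 (SE 0.80) and H2-DMa at -0.06 (SE 0.33) on the log2 scale, neither past the threshold (edgeR adjusted p = 0.9999). Of 12345 genes 0 (0.0%) passed in edgeR, 122 had a p under 0.05 before adjustment (0.559% of all genes with the cKO lower, neither member among them), and 11 (0.0891%) passed with the block, none of them a member. DESeq2 called 4 genes (0.0252%). Without control 2, where 748 genes passed, H2-Ab1 passed too (-2.47, edgeR adjusted p = 0.0217). Over all D1Tom cells Cd74 had 27.1, 23.7, 5.43 and 18.8 CPM. The edgeR log2 differences of the 6 members ran from -1.32 (SE 0.45, H2-DMb1) to -0.28 (SE 0.17, H2-DMa), none past the threshold among 14508 genes (0.0% called). Before adjustment 320 genes had a p under 0.05 in edgeR, 0.744% of all genes being lower in cKO, and of the members H2-DMb1. DESeq2 called 24 genes (0.139%) and no member. With the block 1 gene passed in edgeR (0.00689%), again no member. All 6 members were lower in both cKO libraries, against 13.7% of all genes. The number of Gfap-positive cells per library and the member counts per such cell both enter these sums.

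None of the other list genes passed edgeR's test between genotypes in Gfap-positive astrocytes. Ciita was at 6.67, 6.46, 2.27 and 3.26 CPM, a log2 difference of -1.19 (SE 0.51, edgeR adjusted p = 0.945). Of 11 regulators and processing genes 5 were higher and 6 lower in cKO, with a median of -0.04. Of 10 class I and peptide loading genes 9 were lower, with a median of -0.16. B2m was at 144, 140, 92.9 and 82.9 CPM and H2-D1 at 24.0, 26.1, 9.71 and 16.5. H2-K1, another class I heavy chain, was at 13.6, 18.3, 15.2 and 13.1 CPM and overlapped. Of 15 interferon genes 14 were lower, with a median of -0.59 against 0.00 over all genes, and Ifitm3 was at 197, 130, 82.6 and 57.0 CPM. The 4 microglia markers that could be tested had a median of -0.97, all 4 lower in cKO, and their part in the members' difference was not tested. The 13 reactive astrocyte genes were divided, 6 higher and 7 lower, as were the 15 astrocyte markers, 7 higher and 8 lower.

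The GTE sort had few counts of these genes. All GTE cells together held 268 member counts, 218 of them from H2-DMa and 4 from Cd74. The 127 Gfap-positive GTE astrocytes held 1 Cd74 count, in cKO 2, where Cd74 was at 10.3 CPM. The other GTE libraries had 0 counts of Cd74 in 43, 24 and 44 such cells. Gfap-positive GTE astrocytes were at 49.5, 48.7, 17.6 and 61.5 CPM of the summed members, with H2-DMa alone at 37.1, 48.7, 5.86 and 30.8. Gfap-negative GTE astrocytes were at 6.90, 7.62, 8.54 and 10.2 CPM. Gfap in GTE astrocytes was at 17.2 to 35.2 CPM, against 349 to 591 CPM in D1Tom astrocytes. GTE held 19 astrocytes at 1000 CPM of Gfap or more, and 1 of them was class II-positive.

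GTE cells were shallower than D1Tom cells. Thinned to 1000 counts, 40, 21, 44 and 16 Gfap-positive GTE astrocytes had 0 cells with a Cd74 count, which allows shares of up to 7.50%, 14.3%, 6.82% and 18.8% for counting error only. The D1Tom shares at that depth were 12.7%, 14.97%, 2.25% and 5.27%, a range that overlaps these limits. Gfap in Gfap-positive astrocytes was also lower in GTE, at 387 to 569 CPM against 965 to 1314 in D1Tom. The thinning left out 6 Gfap-positive GTE cells. GTE microglia, 104 cells with 4900 counts of the microglia list, had 0 counts of Cd74, H2-Ab1, H2-Aa and H2-Eb1 and 12 member counts in all. Only H2-DMa could be tested for genotype. Its edgeR log2 difference was -0.15 (SE 0.72) in GTE astrocytes, where 1 of 10370 genes (0.00964%) passed, and -0.16 (SE 0.57) over all GTE cells, where 4 of 12042 (0.0332%) passed. Both cKO libraries were below both controls in 8.34% of genes in GTE astrocytes, H2-DMa not among them. Before adjustment 3.05% of genes in GTE astrocytes and 2.38% over all GTE cells had an edgeR p under 0.05 and were lower in cKO, again without H2-DMa. DESeq2 called 1 gene (0.00686%) and 2 genes (0.0127%) in the same sums. Neither value of H2-DMa was past the threshold, with edgeR adjusted p-values of 0.982 and 0.986.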

How the data were processed

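Single cells of frontal isocortex at postnatal day 7 were measured in 8 libraries, with 2 control and 2 cKO libraries in each of 2 sorts. Per the labels' protocols, pronase-dissociated cells were sorted by flow cytometry and prepared with 10x Chromium 3′ chemistry. The authors deposited counts per gene and cell as whole numbers, not normalized, in 1 table per sort, beside a table that names the library of each cell. That cell table also holds the fraction of mitochondrial and ribosomal counts per cell, per the file headers, which was not used. The submitters' processing notes name Cell Ranger 2.1.1, UMI-tools 0.5.4, STAR 2.5.2b, Subread 1.6.2 (featureCounts), SAMtools 1.6, bcl2fastq 2.17.1.14 and FastQC 0.11.5 with mm10 and GRCm38.p6, and the strand setting is not given in the sources used here.

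The 6 members and all gene lists were chosen with earlier results of these data known. The genes named besides the members came from those lists or from the 8 genes most like the summed members, except where the text says otherwise. No cell was removed and no doublet caller was run. Cells were classed by the share of marker genes detected (at least 3, no tie), and 1242 D1Tom and 6914 GTE cells stayed unassigned. Levels are CPM of the summed counts of a class in a library. Genotypes were compared on such sums with edgeR 4.0.16 in R 4.3.3 (quasi-likelihood test, TMM factors, filter on low counts, Benjamini-Hochberg adjustment over all genes tested, threshold 0.05), in fits for each sort alone. The fit was first tested on simulated data. Alternatives were DESeq2 1.42.0, RLE factors, no filter, the replicate number as a block, each library left out, at least 5 markers, cells without microglia-list counts and Leiden clusters (leidenalg 0.10.2, 2000 variable genes, 30 components, 20 neighbours). Leaving out astrocytes with 3 or more markers of another class was added after the data had been seen.

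The labels name 2 preparation days for the D1Tom libraries, which pair replicate 1 and replicate 2 across genotypes. Deviations of same-numbered D1Tom libraries correlated at 0.58 over 12815 genes.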

Additional observations from a re-analysis of the deposited data

Results flagged for a closer look

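Over all cells, H2-DMa moved in opposite directions in the 2 sorts. GTE values in library order (control 1, control 2, cKO 1, cKO 2) were 9.36, 9.22, 11.4 and 10.3 CPM, a cKO minus control difference of 1.56 CPM. D1Tom values in that order were 19.2, 15.7, 15.4 and 12.2 CPM. Every cKO library was above every control in GTE and below every control in D1Tom. Of all genes, 2358 of 12042 were above in that way over all GTE cells. Over all D1Tom cells 1983 of 14508 (13.7%) were below in that way. The difference between the sorts was not tested. With TMM factors the fitted log2 difference in GTE was -0.16, of the opposite sign to that of the CPM values. Reads of Brd2 on the other strand may be part of the H2-DMa counts, and their part was not tested.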

How the results depend on the processing

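In D1Tom astrocytes, Gfap-positive astrocytes and all D1Tom cells, all 180 values of the 6 genes under the alternatives were lower in cKO, 43 of them newly past the threshold. Gfap-negative astrocytes, where H2-DMa changed sign, are not among them. The 180 values are refits of the same 4 libraries over overlapping cells. Some results on the members in cKO astrocytes were known when the list was made, so the common sign adds no support. The mean summed level in Gfap-positive astrocytes of the 4 libraries, 399 CPM, stayed between 370 and 473 under the other choices of cells and between 272 and 482 with each library left out. The counts of genes called were less stable, and the cause was not tested. Against 0 genes in edgeR, DESeq2 called 12 in D1Tom astrocytes, 17 in Gfap-positive ones, 4 in Gfap-negative ones and 24 over all D1Tom cells, and against 4 over all GTE cells it called 2. Without the filter on low counts the numbers were 1 in D1Tom astrocytes, 112 in Gfap-positive ones, 5 in GTE astrocytes and 18 over all GTE cells. With the replicate number as a block they were 278, 243 and 11 in D1Tom astrocytes, Gfap-positive ones and Gfap-negative ones, and 1 over all D1Tom cells. For GTE the labels repeat the D1Tom statement of preparation days with sexes other than those given for the GTE animals, so the numbers were not taken as pairs (correlation of deviations -0.20 over 10370 genes). The block gave 0 genes in GTE astrocytes and 0 over all GTE cells. The block changed no other call of a member. Without astrocytes carrying 3 or more markers of another class there were 58 genes in Gfap-positive cells and 0 in GTE astrocytes, and 0 in the latter with at least 5 markers. With each library left out in turn the counts ran from 1 to 932 in D1Tom astrocytes, 0 to 601 in Gfap-positive ones, 1 to 748 in Gfap-negative ones, 3 to 10 in GTE astrocytes, 0 to 6 over all D1Tom cells and 1 to 27 over all GTE cells. The single library left in a genotype was then assumed to vary like the others.

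The mean ratio of member counts per 1000 microglia-list counts in Gfap-positive astrocytes was 12266, against 22358 for astrocyte clusters, 108760 without cells carrying 3 or more markers of another class, and 8483 to 14106 with each library left out. No ratio exists without cells that have microglia-list counts. H2-DMa changed sign where its difference was near 0. In Gfap-negative D1Tom astrocytes it was 0.0021 without cells with a microglia-list count and -0.15 to 0.023 with each library left out. In GTE it was -0.91 to 0.43 in astrocytes and -0.47 to 0.13 over all cells with each library left out. The 50 D1Tom microglia and the shallow GTE cells limit what can be seen: in either, a member at 0 counts may be present below the limits given.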
